A study of Homo sapiens with 9 samples.

Results

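The comparison described here set THP-1 cells given ectosomes of PKM2-knockdown cells against THP-1 cells given ectosomes of scramble-shRNA cells. THP-1 is an established human monocytic leukaemia cell line. The members were chosen by label: the 3 libraries titled as PKM2-knockdown ectosomes and the 3 titled as scramble ectosomes, 6 of the 9 libraries of the series. The other 3 are labelled as control THP-1 cells, and they took no part in the fit. In what follows the 3 scramble-ectosome libraries are called the scramble group and the 3 PKM2-knockdown-ectosome libraries the knockdown group. The series title names Huh7, an established human hepatoma line, as the source of the ectosomes. The labels give THP-1 as the only cell line and the shRNA as a feature of each sample, and the knockdown is read here as one made in the Huh7 cells that shed the vesicles. Both groups therefore share the recipient cell line and the presence of Huh7 ectosomes, and they differ in the shRNA. For the ectosomes, the sources used here give neither shRNA sequence nor number of clones, and no dose, isolation method or exposure time. RNA was total RNA extracted with Trizol. Nothing in the labels says that the numbered replicates came from separate cultures, so each p-value speaks to the variation among these particular libraries, which could be technical only.

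Ectosomes are membrane vesicles shed directly from the cell surface, and they can carry proteins, RNAs and metabolites from one cell to another. PKM2 is a splice form of pyruvate kinase, the enzyme that turns phosphoenolpyruvate into pyruvate at the end of glycolysis, and tumour cells commonly make it. Monocytes that take up foreign material or sense cytokines can switch on chemokines, phagocytic receptors and the unfolded protein response, the programme by which a cell adds chaperones when its endoplasmic reticulum (ER) is loaded with unfolded protein.

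The libraries of the scramble group held 20948331 to 23864381 counts and those of the knockdown group 18593808 to 20777931. In a principal component analysis of the 6 libraries, the leading axis carried 88.4% of the variance and separated the groups, and the next carried 3.32%. Of 15 monocyte markers 14 were tested, 12 were higher in the knockdown group and 0 lower, against 37.6% and 36.7% of all genes tested, and their summed level was 1638 to 1695 CPM (counts scaled to the library's total, a unit not corrected for gene length) in the scramble group and 3065 to 3399 in the knockdown group. Of 30 hepatocyte and hepatoma markers 6 could be tested, of which 4 were higher in the knockdown group and 0 lower, beside the same shares of all genes. Their list summed to 13 to 13.3 CPM against 52.1 to 58.4. Most of the latter came from SERPINA1, an antitrypsin gene that monocytes also use, at 2.77 to 3.58 CPM against 36.1 to 42.5. The albumin gene ALB had 34 reads in the 6 libraries together, at 0.0838 to 0.131 CPM in the scramble group and 0.337 to 0.538 in the knockdown group. HNF4A had 10 reads and TTR 7, all in scramble libraries. Summed markers of T, natural killer and B cells were 53.7 to 60.3 CPM against 73.4 to 76.6, those of fibroblasts and endothelium 3.32 to 6.25 against 20.5 to 25.5, and those of neutrophils and dendritic cells 74.2 to 79.2 against 137 to 152. The last sum follows CSF3R (30.4 to 31.6 CPM against 110.1 to 122), while CXCR2 did not pass, IL3RA was lower, and CD1C and the rest lay near 0. The part of such cells in the results was not tested, and in bulk RNA fewer cells of a type and less RNA per cell cannot be told apart. Genes encoded in the mitochondrial genome took 4.27% to 4.53% of the counts of a scramble library and 4.67% to 4.90% of those of a knockdown library.

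THP-1 cells given the 2 kinds of ectosomes had widely different transcriptomes. Of 17676 genes tested with edgeR's quasi-likelihood test, 13138 (74.3%) differed at a Benjamini-Hochberg adjusted p under 0.05, 6646 (37.6%) higher and 6492 (36.7%) lower in the knockdown group. These shares are the background against which each count of list members below is to be read, but they are not matched for level. Lower calls rose with mean level: 17.6% under 1 CPM, 25.3% at 1 to 10 and 45.6% at 10 to 100. In the classes above 100 CPM, 55.8% and 58.3% were lower. Higher calls were most frequent at 1 to 10 CPM (44.3%) and fell to 29.5% and 29.8% above 100. For lists of abundant genes, such as ribosomal proteins, 36.7% is therefore too low a background for lower calls. With a change of at least 2-fold required beside the adjusted p, 5187 genes (29.3%) were called, 3221 (18.2%) higher and 1966 (11.1%) lower. At least 8-fold changes numbered 312 higher and 157 lower, and at least 32-fold changes 34 and 30. In 13404 genes (75.8%) every library of one group lay above every library of the other, 6739 (38.1%) with the knockdown group on top and 6665 (37.7%) with the scramble group on top. The median log2 fold change over all genes tested was 0.02 and the median absolute log2 fold change 0.60. Of the genes called, 50.6% were higher in the knockdown group. Scaling by library totals alone raised that share to 59.9% and the median over all genes to 0.18, so a difference near 0 depends on the scaling.

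**Figure D1:**
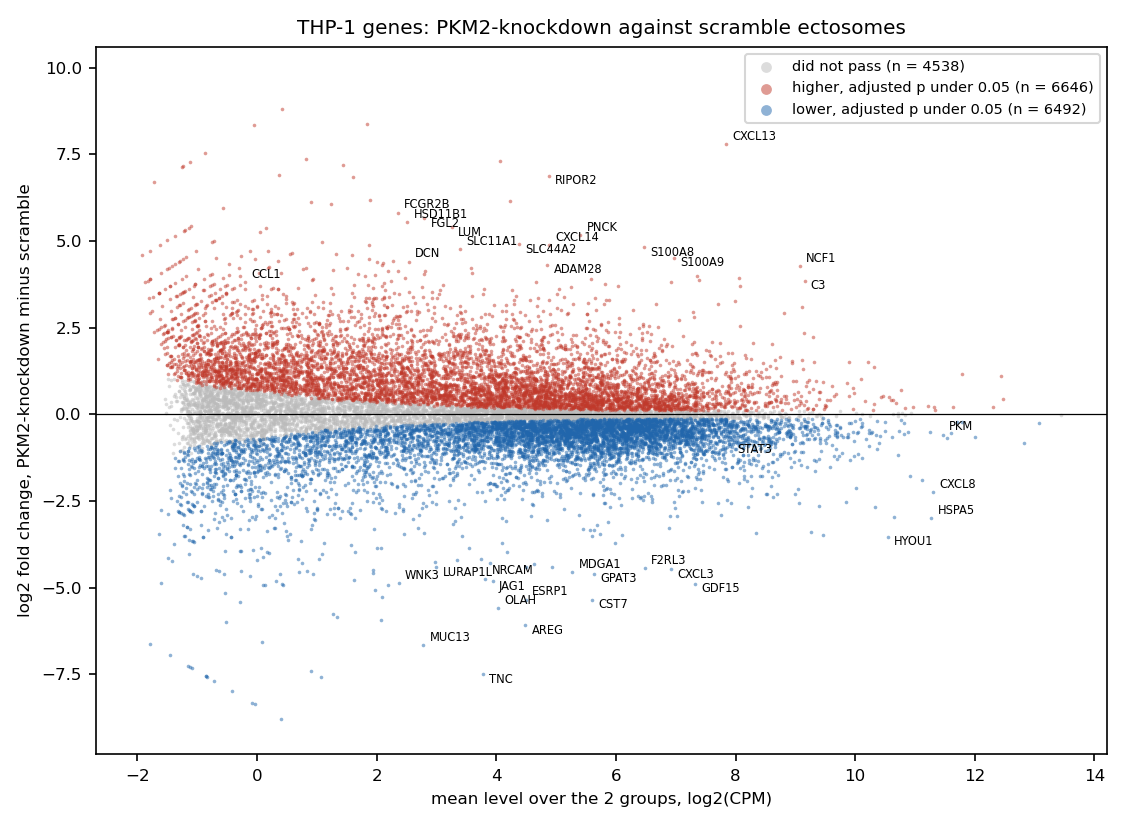
Log2 fold change (knockdown minus scramble group) against mean level in log2(CPM) for each of the 17676 genes tested, coloured by the call at adjusted p under 0.05. The 6646 higher and 6492 lower genes occur at every level, with more higher than lower genes under 10 CPM and more lower than higher genes above it. The genes labelled run from CXCL13 at 7.79 to TNC at -7.50.

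The gene with the largest rise among genes with a mean of at least 5 CPM was CXCL13 (chr4:77511753-77611834, GENCODE 29 on GRCh38), the chemokine that draws B cells into lymphoid follicles. On the TMM-scaled CPM used for single genes, it was at 2.06, 2.34 and 1.81 CPM in scramble libraries 1 to 3 and at 446, 447 and 481 CPM in knockdown libraries 1 to 3, a log2 fold change of 7.79 (SE 0.09, adjusted p 2.34e-21). No scramble library came near any knockdown library, and the control libraries lay lower still, at 0.320, 0.344 and 0.0552 CPM on a scale set over all 9 libraries. Control library 3 stood apart from controls 1 and 2 in several myeloid genes, for example CD14 (7.93, 7.17 and 0.451 CPM by library totals) and FCER1G (398, 395 and 103), so control levels are given library by library. RIPOR2, a gene of leukocyte migration, went from 0.481, 0.559 and 0.418 to 52.5, 55.4 and 66.5 CPM (log2 fold change 6.89). The inhibitory Fc receptor FCGR2B was at 0.0875, 0.153 and 0.278 CPM in the scramble group and 9.83, 8.92 and 11.4 in the knockdown group. RIPOR2 and FCGR2B were thus below 1 CPM in every scramble library, and CXCL13 was at a low level there.

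The calprotectin subunits S100A8 and S100A9, abundant calcium-binding proteins of monocytes and neutrophils, rose together. S100A8 measured 5.34, 6.31 and 6.54 CPM against 153, 145 and 215, and S100A9 9.27, 11.6 and 10.5 CPM against 198, 213 and 308. Knockdown library 3 was the highest of its group for both, and the groups did not overlap. Control libraries held 79.6, 75.5 and 99.8 CPM of S100A8, between the 2 groups. SLC11A1, the metal transporter of the phagosome, stood at 0.743, 0.610 and 0.835 CPM against 19.6, 20.1 and 20.9, a log2 fold change of 4.77 (SE 0.15).

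NCF1, the organiser subunit of the phagocyte NADPH oxidase, was at 44.8, 59.9 and 54.8 CPM in the scramble group and 957, 1033 and 1079 CPM in the knockdown group (4.27, SE 0.09). The gene has the near-identical pseudogenes NCF1B and NCF1C, which were counted as rows of their own and differed alike, by 3.88 and 3.94, so that reads may be shared among the 3 rows. Oxidase subunits singled out after their values were seen were CYBB, the membrane catalytic subunit, at 133 and 370.0 CPM (log2 1.48), and NCF4, which differed by 0.36.

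Of the other large rises, FGL2, a fibrinogen-like protein of macrophages, differed by 5.65 (6.37 without scramble library 2), HSD11B1, the enzyme that regenerates active glucocorticoid, by 5.54 and CXCL14, a chemokine that attracts monocytes, by 4.88. The small leucine-rich proteoglycans LUM and DCN, which bind collagen fibrils, differed by 5.40 and 4.41. LUM was at 0.262, 0.559 and 0.510 CPM against 18.6, 15.6 and 21.9. Both are known from fibroblasts, as is COL1A1 (0.994 and 3.21 CPM, log2 1.72), whereas COL1A2 had 16 reads and COL3A1 24 in the 6 libraries together. Of 10 fibroblast and endothelial markers 5 were tested and 5 were higher, and the part of such cells was not tested. The remaining large rises were PNCK, a calmodulin-dependent kinase (5.17), the choline transporter gene SLC44A2 (4.91) and ADAM28, a lymphocyte metalloprotease (4.31). PNCK overlaps SLC6A8 on the other strand, which was also higher, at 1.86, and as the strand setting is not given in the sources used here, their reads cannot be told apart.

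By the same rule, the largest fall was that of TNC (chr9:115019578-115118257), the matrix glycoprotein tenascin C. It was at 27.5, 27.3 and 27.1 CPM in the scramble group and 0.144, 0.230 and 0.0514 CPM in the knockdown group, a log2 fold change of -7.50 (SE 0.19, adjusted p 8.98e-17). The 3 scramble libraries were nearly equal, and the knockdown libraries together held 9 reads. MUC13, an epithelial membrane mucin, went from 15.4, 13.1 and 12.4 to 0.144, 0 and 0.257 CPM, and 0 reads of it were counted in each control library. Its log2 fold change of -6.66 became -6.06 without knockdown library 2 and -7.48 without knockdown library 3. AREG, the EGF-receptor ligand amphiregulin, went from 43.8, 44.4 and 44.5 to 0.815, 0.598 and 0.514 CPM (-6.09, SE 0.13). These genes were at moderate level in every scramble library and close to 0 in the knockdown and control libraries alike.

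GDF15, a stress-induced member of the TGF-beta family, was at 284, 322 and 323 CPM against 11.1, 10.2 and 10.2 (-4.88). JAG1, a Notch ligand, was at 28.9, 32.8 and 27.4 CPM against 0.863, 1.10 and 1.18 (-4.82). CST7, a cysteine protease inhibitor of leukocytes, was at 94.5, 92.8 and 96.8 CPM against 1.77, 3.04 and 2.06 (-5.36). In these, too, the groups lay far apart and replicates close together. Other large falls were those of OLAH, a fatty acid thioesterase (-5.59), the epithelial splicing regulator gene ESRP1 (-5.34), the kinase gene WNK3 (-4.86), the neural adhesion genes NRCAM (-4.74) and MDGA1 (-4.56), GPAT3, an enzyme of triglyceride synthesis (-4.59), the thrombin receptor gene F2RL3 (-4.43), LURAP1L (-4.41) and the chemokine gene CXCL3.

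**Figure D2:**
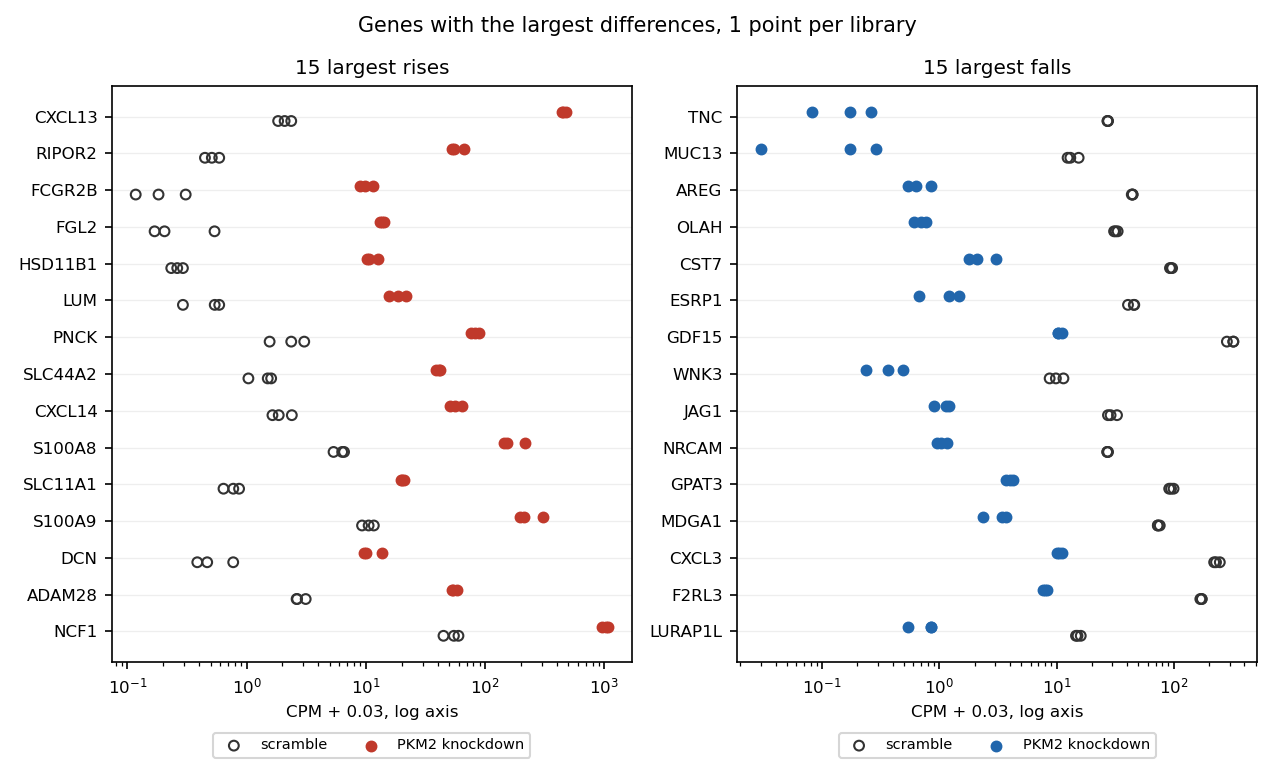
CPM plus 0.03 on a log axis for the 15 largest rises (left) and 15 largest falls (right), 1 point per library, open for the scramble and filled for the knockdown group. The groups are separate for each gene: CXCL13 has means of 2.07 and 458 CPM in the scramble and knockdown libraries, and TNC of 27.3 and 0.142 CPM.

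By difference in CPM, which favours abundant and long genes, the rises were led by the actin gene ACTB (3271, 3649.7 and 3637 CPM against 7180.4, 7911 and 7483) and by TMSB4X, which encodes the actin-binding thymosin beta 4 (1989, 2230.0 and 2314 against 4734, 4779.6 and 5127). LGALS1, the galectin 1 gene, was at 1333 and 2164 CPM, and COL9A2, a collagen chain, at 492 and 1413. DENND3, an activator of a RAB protein in autophagy, rose from 113, 117 and 116 to 1014, 1029 and 945 CPM (3.11). The falls were led by the elongation factor gene EEF1A1 (8801, 9457 and 9488 CPM against 5075, 5306 and 5296), and 5 of the other 9 were ER chaperones. YBX1, an RNA-binding protein gene, was at 5026 and 3185 CPM. The mitochondrial ribosomal RNA MT-RNR2 differed by -0.24 and lost its call under scaling by library totals (-0.08, adjusted p = 0.116).

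The ER chaperones and folding enzymes had the lowest median of the lists. Of 25 tested, 24 were lower in the knockdown group and 0 higher, all 24 of them by at least 2-fold, and their median log2 fold change was -2.22 against 0.02 over all genes. HSPA5, which encodes BiP, the main chaperone of the ER, was at 4209, 4489 and 4515 CPM in the scramble group and 538, 568 and 569 CPM in the knockdown group (-2.98, SE 0.06, adjusted p 2.12e-18). HYOU1, the exchange factor of BiP, was at 2694, 2806 and 2729.8 CPM against 214, 243 and 258 (-3.52, SE 0.07). In both, every scramble library was far above every knockdown library, and replicates lay close together. The control libraries were at 382, 369.6 and 275 CPM for HSPA5 and 227, 206 and 211 for HYOU1, nearer to the knockdown than to the scramble group.

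HSP90B1, the ER member of the HSP90 family, fell from 2864 ± 72.5 to 368 ± 8.81 CPM (SD, n = 3 each) (-2.96), PDIA4, a disulphide isomerase, from 1127 to 107 (-3.40), and MANF, a secreted ER stress protein, from 596 to 56.0 (-3.41). The lectin chaperones that hold glycoproteins in the folding cycle also fell, CALR by 1.89 and CANX by 1.77 on the log2 scale. The member that did not pass was the oxidase gene ERO1A (113 ± 5.17 CPM in the scramble and 119 ± 2.11 in the knockdown group, SD, n = 3).

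These genes moved together, and the start regions of 4 members that hold an ER stress element, defined below, are shown. They are from the RefSeq promoter table on GRCh38.p14, 250 bases before to 50 after the start, 5′ to 3′ along the gene. Capitals mark matches to the ER stress element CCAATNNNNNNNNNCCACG or, in HYOU1, to the shorter ER stress element II, which is ATTGG, 1 free base and CCACG, each searched on both strands. The elements are known as sites where the sensor ATF6 and the factor XBP1 act with NF-Y. PDIA4 and MANF, which fell further than HSPA5, were not among the members with a match. HSPA5 (chr9:125241294-125241593, minus strand) holds 1 match 66 to 48 bases before the start, HSP90B1 (chr12:103930160-103930459, plus strand) 2 matches, HYOU1 (chr11:119057156-119057455, minus strand) 2 matches and CALR (chr19:12938359-12938658, plus strand) 1 match.
HSPA5: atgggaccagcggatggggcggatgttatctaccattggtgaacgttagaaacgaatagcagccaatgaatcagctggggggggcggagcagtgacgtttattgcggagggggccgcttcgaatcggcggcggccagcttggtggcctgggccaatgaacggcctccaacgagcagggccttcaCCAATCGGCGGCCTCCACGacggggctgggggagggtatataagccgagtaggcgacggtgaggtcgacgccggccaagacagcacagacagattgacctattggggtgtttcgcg
HSP90B1: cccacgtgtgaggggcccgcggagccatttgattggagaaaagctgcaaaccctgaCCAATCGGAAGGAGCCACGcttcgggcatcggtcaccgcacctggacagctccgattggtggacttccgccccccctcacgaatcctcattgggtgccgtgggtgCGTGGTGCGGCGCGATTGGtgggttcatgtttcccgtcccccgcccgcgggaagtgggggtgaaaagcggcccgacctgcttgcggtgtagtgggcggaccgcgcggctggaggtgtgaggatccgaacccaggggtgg
HYOU1: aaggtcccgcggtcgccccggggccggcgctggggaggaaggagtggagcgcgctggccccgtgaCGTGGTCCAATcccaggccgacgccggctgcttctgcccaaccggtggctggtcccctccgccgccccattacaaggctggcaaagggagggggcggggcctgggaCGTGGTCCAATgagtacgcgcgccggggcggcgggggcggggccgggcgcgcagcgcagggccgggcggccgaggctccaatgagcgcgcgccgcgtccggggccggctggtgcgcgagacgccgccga
CALR: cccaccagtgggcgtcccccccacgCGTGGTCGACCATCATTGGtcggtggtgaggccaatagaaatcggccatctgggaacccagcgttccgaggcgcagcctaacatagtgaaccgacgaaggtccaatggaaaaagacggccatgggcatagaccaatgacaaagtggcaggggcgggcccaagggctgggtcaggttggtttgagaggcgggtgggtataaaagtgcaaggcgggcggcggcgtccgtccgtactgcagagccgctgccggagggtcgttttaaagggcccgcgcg

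Of the 25 chaperone genes 24 had a promoter in the RefSeq table. The ER stress element was in 7 of the 24 (29.2%): HSPA5, HSP90B1, PDIA6, CALR, CANX, CRELD2 and ERO1B. All 7 were lower in the knockdown group, but so were 24 of the 25 list members, so direction does not set the 7 apart. Over 27305 genes with a promoter, 25 (0.0916%) held it. The ER stress element II was in HYOU1 and SDF2L1 of this list, and in 19 genes (0.0696%) of all. In the translocon and degradation list HERPUD1 held the second element, 0 of 26 promoters held the first, and 0 of 27 promoters of the vesicle coat list held it. It was also in ALG12, 1 of 20 promoters of the N-glycan list, and in XBP1, 1 of 18 of the ER sensor list. Both genes were lower, as were most members of those lists. A match is a description of the letters in this window and no measurement of binding.

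The ER sensors and the transcription factors they control split, with 14 of 18 lower and 4 higher (median -1.14). XBP1, the factor of the IRE1 branch, was at 602, 614 and 614 CPM against 121, 125 and 126 (-2.30), and here the control libraries (337, 300.3 and 169 CPM) lay between the groups. TRIB3, a pseudokinase induced late in the response, was at 1262, 1282 and 1326 CPM against 109, 125 and 114 (-3.48). ATF3 differed by -3.47 and DDIT3, which encodes the pro-apoptotic factor CHOP, by -2.42. ATF4, the hub of the branch that reduces translation, fell by 0.99. The higher members were CREB3L1 (3.26), ATF6B (177 and 423 CPM, 1.25), CREB3L4 (1.22) and NUPR1 (0.92), the last no longer called when all 9 libraries were fitted (adjusted p = 0.068).

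Downstream steps of the secretory route fell too. Of the translocon, signal peptidase and ER-associated degradation genes, 29 of 32 were lower and 1 higher (median -1.18). SEC11C, a catalytic subunit of signal peptidase, was at 113, 124 and 115 CPM against 8.96, 8.0 and 9.71 (-3.72), while its paralogue SEC11A had means of 145 and 101 CPM. TRAM1, a translocon partner, differed by -2.56 and SEL1L, the scaffold of the degradation ligase, by -2.12. EDEM2, a mannose-trimming enzyme, was the higher member (0.37), and UBE2J1 and FAM8A1 did not pass.

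Among oligosaccharyl transferase and N-glycan precursor genes 20 of 23 were lower and 1 higher (median -0.92). GFPT1, which starts the hexosamine pathway, differed by -2.46, OSTC by -1.90 and the transferase subunit RPN1 by -1.75, whereas KRTCAP2, another subunit, was higher at 1.47. Of COPII, COPI and KDEL receptor genes, which form the vesicles between ER and Golgi, 27 of 30 were lower and 0 higher (median -0.97). The cargo receptors TMED2 (-1.91) and LMAN1 (-1.85) and the coat gene SEC13 (-1.70) were among the falls, and SEC16A (255 and 249 CPM), KDELR3 and YIF1A did not pass.

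**Figure D3:**
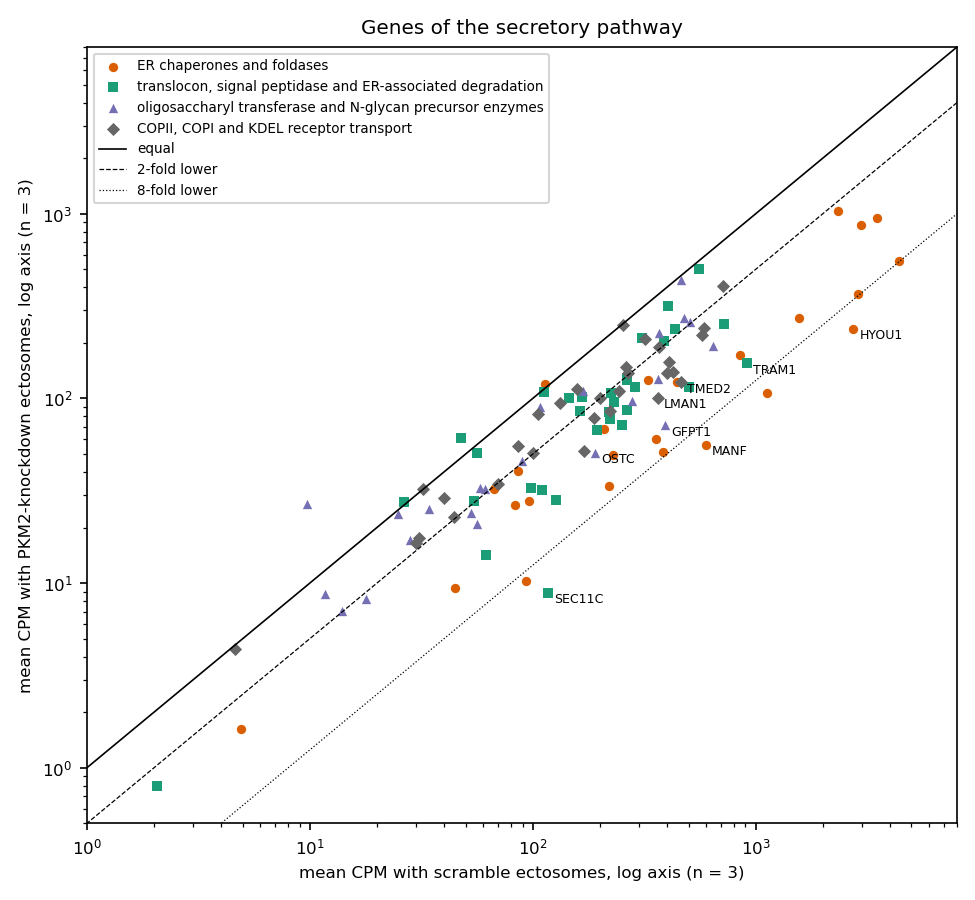
Mean CPM in the knockdown group against the scramble group, both on log axes and over 3 libraries each, for the chaperone, translocon, N-glycan and vesicle coat lists, with lines for equal, 2-fold lower and 8-fold lower levels. Most points lie below the line of equality, and the chaperones HYOU1 (-3.52) and MANF (-3.41) are among those below the 8-fold line.

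Amino acid synthesis and transport genes, many of them known ATF4 targets, were lower in 23 of 28 and higher in 5 (median -1.27), the latter being 2 when all 9 libraries were fitted. A single form of the CEBP-ATF response element, TGATG, 1 free base and AAT, was searched on both strands. It was in 0 of 23 promoters of this list, 0 of 18 of the ER sensor list, 0 of 2 of the aminoacyl-tRNA synthetase list and 1.22% of all genes. Forms with another last base and sites outside the window were not searched, so these counts do not show that the element is absent. SLC3A2, the heavy chain shared by several amino acid transporters, was at 2262, 2198 and 2232 CPM against 326, 359 and 362 (-2.68). Its cystine-importing partner SLC7A11 was at 871, 869.6 and 842 CPM against 224, 188 and 173 (-2.14), with knockdown library 1 the highest of its group. SESN2, a leucine sensor, differed by -2.52, CTH, an enzyme of cysteine synthesis, by -2.61, and SHMT2, the mitochondrial serine enzyme, by -1.39. The higher members included the cytosolic folate enzymes MTHFD1 (1.49) and SHMT1 (0.61). Of the cytosolic aminoacyl-tRNA synthetases 16 of 20 were lower and 2 higher (median -0.69), led by SARS (-1.55) and WARS (-1.52), with QARS (0.45) and DARS (0.39) higher.

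**Figure D4:**
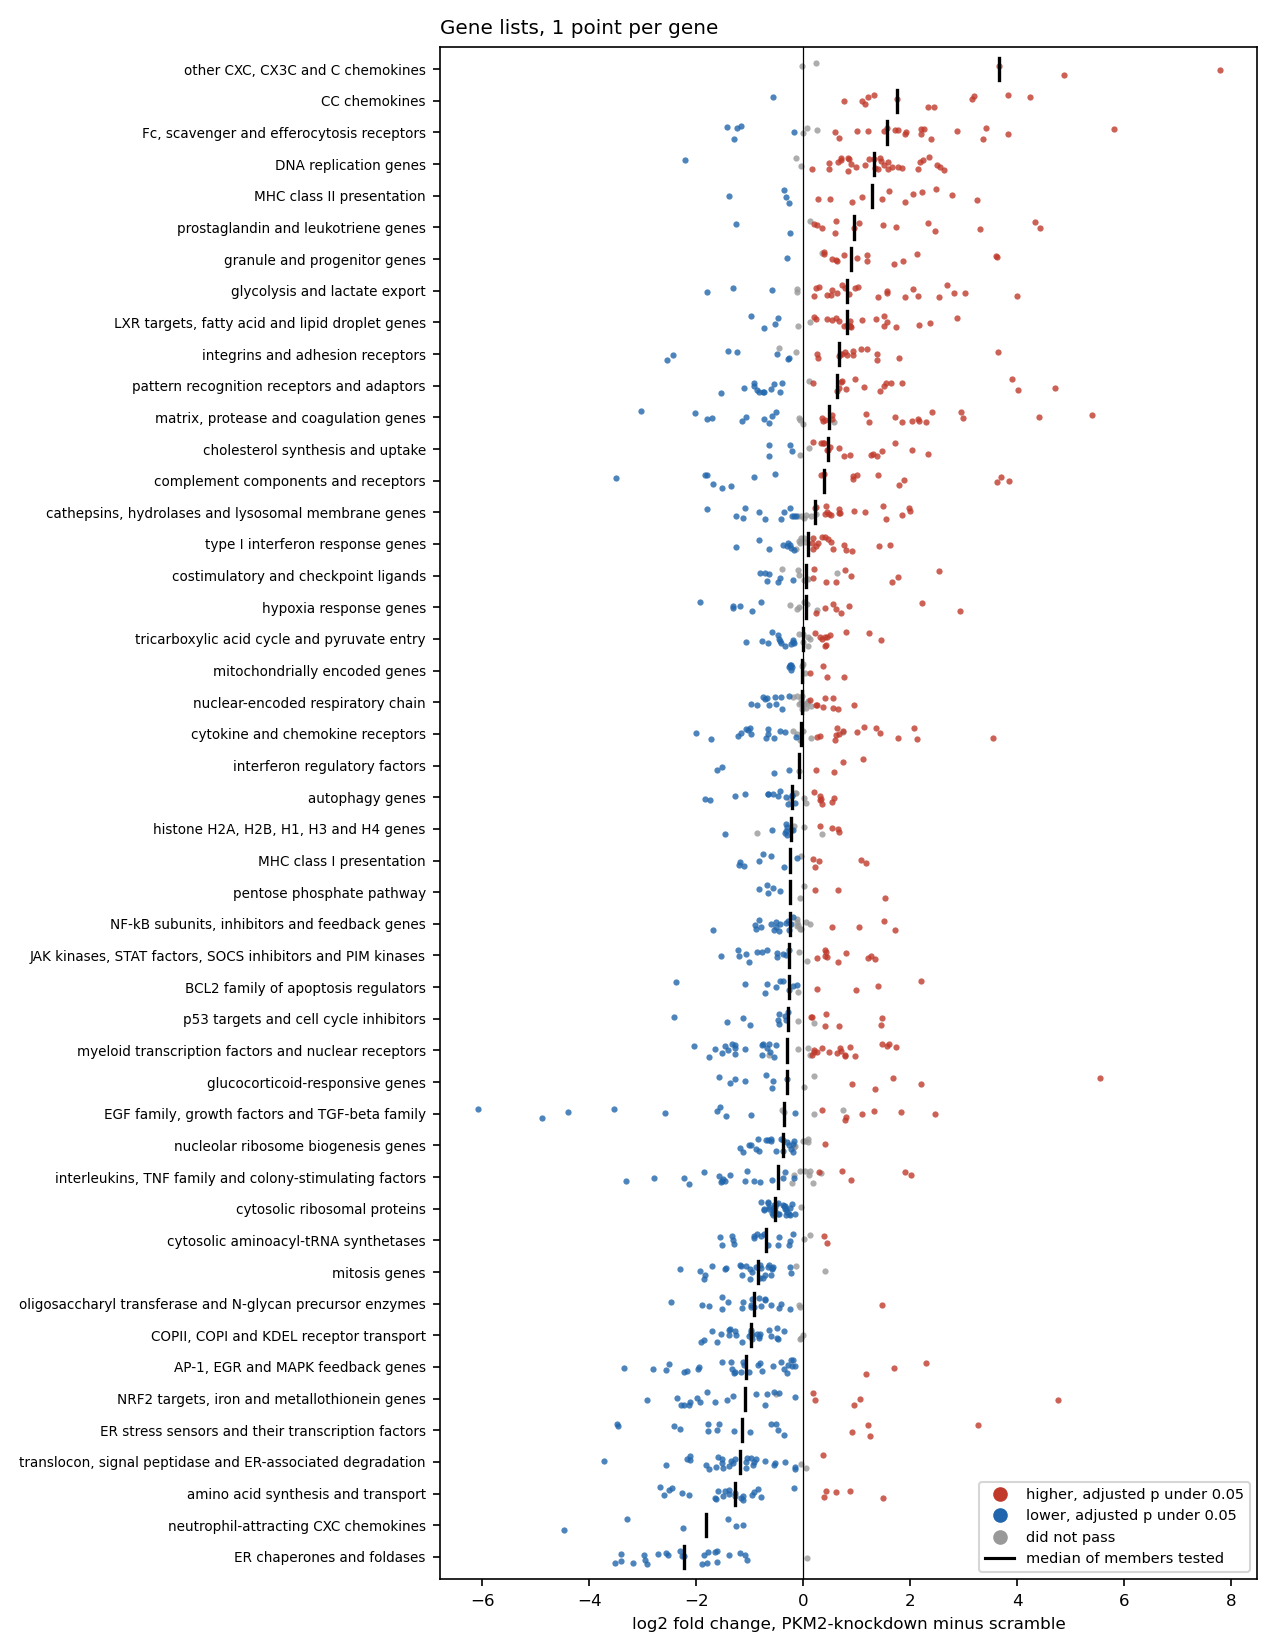
Log2 fold change (knockdown minus scramble) of each tested member of the gene lists, 1 point per gene, with the list's median as a bar and lists ordered by it. ER chaperones have the lowest median, -2.22, and the 5-gene list of other CXC, CX3C and C chemokines the highest, 3.66.

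The chemokine lists differed in direction, as the plot of the gene lists shows, and CXC genes went both ways. All 6 tested CXC chemokines that attract neutrophils were lower (median -1.82). CXCL8, or interleukin 8, was at 3922, 4191 and 4360.4 CPM in the scramble group and 967, 839 and 830.3 in the knockdown group (-2.24, SE 0.06). Both groups stood far above the control libraries, at 19.4, 25.1 and 3.59 CPM. CXCL3 was at 221, 229 and 247 CPM against 10.4, 10.1 and 11 (-4.47) and CXCL2 at 214, 208 and 224 CPM against 25.1, 20.2 and 20.9 (-3.29). CXCL1 (-1.12), CXCL6 (-1.40) and PPBP (-1.26) were the others.

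The CXCL3 start region (chr4:74038640-74038939, minus strand, GRCh38.p14, RefSeq) is shown for this cluster. Capitals mark a match to GGGNNTTCC, a short form of the NF-kB motif, 53 to 45 bases before the start. Longer forms were not searched, and the stretch gggaatttcc further upstream, which resembles one, is left in lower case. The counts that follow hold for the short form alone. The motif, searched on both strands, was in 3 of the 7 promoters of this list that the table held (CXCL1, CXCL2 and CXCL3) and in 7.95% of the 27305 genes. All 3 of these were lower, as were all 6 tested members of the list. The motif was also in 11 of 25 promoters of the NF-kB list, of which 5 genes were lower, 2 higher (TNFAIP3 and TNIP3) and 4 did not pass, and in 2 of 16 promoters of CC chemokines, of which CCL20 was higher and CCL15 was not tested.
CXCL3: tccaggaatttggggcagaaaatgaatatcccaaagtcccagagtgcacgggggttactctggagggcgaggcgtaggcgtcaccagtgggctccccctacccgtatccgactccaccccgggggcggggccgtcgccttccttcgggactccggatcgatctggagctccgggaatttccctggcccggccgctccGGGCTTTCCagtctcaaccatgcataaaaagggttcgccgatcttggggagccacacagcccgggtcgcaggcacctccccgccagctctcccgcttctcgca

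CC chemokines went the other way, with 12 of 13 higher and 1 lower (median 1.75). CCL5, a T cell and monocyte attractant, was at 169.8, 192 and 198 CPM against 931, 977 and 937 (2.34). CCL2, the main monocyte attractant, was at 16.2, 18.8 and 17.9 CPM against 87.6, 90.5 and 110.5 (2.45), and its relative CCL8 rose by 4.24 from a very low level. The groups were apart in each. CCL1, a ligand of CCR8, had 7 reads in the scramble group and 100 in the knockdown group, 0.219, 0.102 and 0 CPM against 1.01, 1.20 and 2.72 (3.83, SE 0.58), and 0 in the control libraries. Knockdown library 3 held the most of it, and the estimate was 4.88 without scramble library 1 and 3.24 without scramble library 3. CCR8 was looked up, but no row of the count table used here carried it, so it could not be tested. CCL4 (1.75) and CCL3 (1.15) have near-identical copies, and their counts are uncertain. CCL22, a ligand of CCR4, was the lower member (-0.57).

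Of the other CXC, CX3C and C chemokines 3 of 5 were higher and 0 lower: CXCL13, CXCL14 and the interferon-inducible CXCL10, at 0.831, 1.12 and 1.02 CPM against 12.5, 10.8 and 14.4 (3.66). CXCL11, another interferon-inducible member, had means of 2.74 and 2.70 CPM and did not pass. The median of this list, 3.66, rests on few genes, being 1.94 when all 9 libraries were fitted and 0.40 with no filter on low counts.

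Interleukin, TNF family and colony-stimulating factor genes were lower in 19 of 32 and higher in 5 (median -0.48). IL23A, the subunit that defines interleukin 23, was at 1616, 1678 and 1747 CPM against 381, 385 and 381 (-2.14, SE 0.05). TNFSF15 differed by -1.86, LIF by -2.23, IL1A by -1.46 and IL11 by -3.32. IL1B, the other interleukin 1 cytokine, did not pass: it was at 1786, 2016 and 1995 CPM against 2052, 1960.1 and 1935 (log2 0.04, adjusted p = 0.563), and its groups overlapped, both far above the control libraries (7.94, 6.76 and 0.276 CPM). IL12B and TNFSF9 did not pass either. LTB (2.01) and the death ligand TNFSF10 (1.90) were higher. TNF was at 273, 296 and 294 CPM against 532, 549 and 519 (0.89), a difference not called when all 9 libraries were fitted (0.87, adjusted p = 0.151).

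Growth factors gave 10 lower and 7 higher of 21 (median -0.35). Beside AREG, the EGF family members NRG1 (56.4, 58.7 and 60.0 CPM against 3.02, 2.21 and 3.08, -4.40) and HBEGF (-1.44) were lower. INHBA, the activin A chain, differed by -0.98. PDGFA (208 and 519 CPM), PDGFB, GRN and TGFB1 were higher, by 1.32, 2.46, 1.10 and 0.79. VEGFA fell by 0.16, with means of 1848 ± 19.7 and 1653 ± 126 CPM (SD, n = 3 each).

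Cytokine and chemokine receptors split evenly, 15 higher and 15 lower of 36, and the sign of their median (-0.03) turned to 0.13 under library totals. CSF1R, the receptor of the macrophage growth factor, was at 75.2, 93.7 and 77.8 CPM against 325, 349 and 356 (2.06, SE 0.07). CCR2, the receptor for CCL2, was at 1.36, 1.07 and 1.16 CPM against 14.2, 13.3 and 14.7 (3.54), while control libraries held 54.9, 48.0 and 130.3 CPM. CX3CR1 (2.13) and CSF3R (1.76) were also higher. IL1R1 (-2.01), CSF2RA (-1.72) and IL3RA (-0.97) were lower, so that receptors of CSF1 and CSF3 rose where those of CSF2 and interleukin 3 fell. TGFBR1 and IFNAR1 did not pass.

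Phagocytic receptors were mostly higher: 19 of 27 Fc, scavenger and efferocytosis genes rose and 5 fell (median 1.56). LRP1, a large endocytic receptor, was at 15.3, 17.3 and 15.4 CPM against 222, 247 and 214 (3.83, SE 0.07). CD36, which takes up oxidised lipoproteins, differed by 2.87, SIGLEC1 by 2.39 and the neonatal Fc receptor gene FCGRT by 2.20. TYRO3 (-1.43), TREM1, which amplifies inflammation (-1.30), and SCARF1 (-1.16) were lower. MERTK and MARCO, near 2 CPM or less, did not pass.

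Pattern recognition genes gave 16 higher and 12 lower of 29 (median 0.64). CD14, the co-receptor for bacterial lipopolysaccharide, was at 6.03, 6.15 and 5.85 CPM against 81.8, 85.0 and 104 (3.91). TLR2, which pairs with TLR1, differed by 1.54, TLR1 by 1.85 and the inhibitory kinase gene IRAK3 by 1.43. The lectin CLEC7A (-1.54), TLR7 (-1.10) and the inflammasome sensor NLRP3 (-0.93) were lower.

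Complement genes moved in both directions, with 11 higher and 8 lower of 19 (median 0.39). C3, the central component, was at 76.1, 71.2 and 74.1 CPM against 1063, 1088 and 1047 (3.85, SE 0.06). C3 overlaps GPR108, a row that did not pass (97.4 CPM in the scramble group and 92.3 in the knockdown group). C5AR1, the receptor of the anaphylatoxin C5a, went the opposite way, at 95.6, 85.2 and 87.5 CPM against 8.05, 7.86 and 7.81 (-3.50). C5 itself rose by 3.69, the alpha chain ITGAM of complement receptor 3 by 1.79, and the shield CD55 fell by 1.84.

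Antigen presentation divided by class. Of MHC class II genes 12 of 16 were higher and 4 lower (median 1.28). HLA-DRA was at 10.5, 10.4 and 10.5 CPM against 36.5, 37.7 and 43.6 (1.91), and CIITA, the master regulator of the class, at 1.66, 1.98 and 1.62 CPM against 8.39, 5.70 and 7.86 (2.06). HLA-DPA1 (2.79) moved with them. Class I genes were lower in 8 of 14 and higher in 5 (median -0.24), and 3 were higher without scramble library 1 or without scramble library 3, and 2 when all 9 libraries were fitted. HLA-B was at 1117, 1179.9 and 1259 CPM against 481, 519 and 544 (-1.20) and B2M, the shared light chain, at 1652, 1758 and 1759 CPM against 990.2, 932 and 996 (-0.82). NLRC5, the activator of class I genes, was higher instead (31.8 and 71.7 CPM, 1.17). HLA genes resemble one another closely, and their counts are uncertain. Costimulatory and checkpoint genes gave 9 higher and 7 lower of 22, among them CD83 (0.90) and LILRB1 (2.55) higher, and CD274, which encodes PD-L1, lower (-0.72), and their majority turned without scramble library 1 (7 higher, 8 lower), while 6 were higher and 2 lower when all 9 libraries were fitted.

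NF-kB subunits, inhibitors and feedback genes were lower in 16 of 28 and higher in 4, by small amounts (median -0.25). NFKB1 (-0.78), RELB (-0.91) and the apoptosis inhibitor BIRC3 (-1.69) fell. The feedback genes TNFAIP3, which encodes A20 (227 and 469 CPM, 1.05), and TNIP1 (0.53) rose, as did the kinase gene IKBKE (1.51). REL, IKBKB and CYLD did not pass.

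Of JAK kinase, STAT, SOCS and PIM genes 13 of 25 were lower and 10 higher (median -0.27). STAT3, the factor of interleukin 6 and 10 signals, was at 312, 316 and 309.9 CPM against 168, 178 and 168 (-0.87, SE 0.05), and control libraries held 138, 128 and 94.0. STAT2 (1.22) and TYK2, a kinase of interferon receptors (236, 221 and 239.6 CPM against 586, 606 and 576, 1.34), rose, as did PTPN6, the phosphatase SHP-1 (1.26). PIM2 (-1.22), PIM3 (-1.01) and SOCS7 (-1.20) fell. The STAT motif, searched as TTCC, 1 free base and GGAA on both strands, was in 1 of 22 promoters of this list (CISH, a higher gene) and in 1.44% of all genes.

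AP-1, EGR and MAPK feedback genes were lower in 29 of 32 and higher in 3 (median -1.07). The lower count was 22 under library totals and 24 when all 9 libraries were fitted. DUSP5, a phosphatase of ERK in the nucleus, was at 86.5, 90.3 and 94.4 CPM against 8.58, 8.51 and 9.71 (-3.34), with controls at 2.61, 2.24 and 1.32. PHLDA1 (-2.57), FOSL2 (-1.32) and DUSP2 (-2.16) followed. The higher members were SPRY1 (2.29), ETV4 (1.70) and EGR3 (1.17), the last not called under 1 of the settings tried.

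Type I interferon response genes gave 15 higher and 9 lower of 30 (median 0.10), but 6 and 2 when all 9 libraries were fitted. IFI27 was at 54.3, 58.4 and 62.0 CPM against 150.2, 154 and 161 (1.41), and IFIT5 at 47.8, 48.8 and 52.2 CPM against 20.6, 22.1 and 19.6 (-1.25). MX2, IFIT1 and USP18 did not pass, and most members differed by less than 2-fold. The interferon-stimulated response element GAAANNGAAA was in 17 of the 22 promoters of this list and in 4.38% of all genes, and of the 17 genes 9 were higher and 6 lower. Among interferon regulatory factors 4 were higher and 4 lower of 9, with a median (-0.08) whose sign turned under library totals. IRF1 was at 102, 107 and 112 CPM against 37.1, 34.6 and 33.5 (-1.61), and IRF8, a factor of monocyte development, rose by 1.12.

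Myeloid transcription factors and nuclear receptors were mixed, 17 higher and 19 lower of 40 (median -0.30), and 19 and 19 under library totals. MYB, a factor of immature blood cells, was at 29.5, 30.7 and 30.6 CPM against 90.1, 91.9 and 94.5 (1.61), and control libraries held 456, 450.1 and 717. NR1H3, which encodes the oxysterol receptor LXR alpha, was at 5.77, 6.71 and 6.87 CPM against 20.9, 21.4 and 22 (1.73). PPARD (0.97) rose, and KLF10 (-2.03), KLF4 (-1.77) and RARA (-1.46) fell. Granule and progenitor genes were higher in 14 of 16 and lower in 1 (median 0.89). RNASE2, an eosinophil-type ribonuclease of granules, was at 4.11, 5.03 and 5.80 CPM against 54.1, 59.4 and 70.7 (3.62), and AZU1, azurocidin, at 74.3, 71.0 and 85.1 CPM against 226, 264 and 259.7 (1.70). Control libraries, at 997, 876 and 1172 CPM of AZU1, were above both groups. HOXA9 was the lower member (-0.30) and MPO did not pass.

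The cell cycle lists moved in opposite directions. Of DNA replication genes 31 of 34 were higher and 1 lower (median 1.33). MCM2, a subunit of the replicative helicase, was at 32.8, 31.2 and 31.0 CPM against 131, 140.1 and 153 (2.16, SE 0.07), and CCNE2, a cyclin of the entry into S phase, at 5.25, 4.98 and 4.36 CPM against 29.6, 27.9 and 28.6 (2.56). The control libraries were higher still, at 254, 226 and 265 CPM of MCM2. MCM3 (1.78) and MCM4 (1.51) rose with them. CDC6 and GINS3 did not pass, and CCND2 was lower, from few reads (49 and 10 in the groups).

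Of mitosis genes 28 of 30 were lower and 0 higher (median -0.84). CDC20, the activator of the anaphase-promoting complex, was at 667, 676 and 718 CPM against 129, 142 and 149 (-2.29, SE 0.06), and the mitotic cyclin gene CCNB1 at 222, 211 and 217 CPM against 56.5, 57.4 and 56.1 (-1.94). The control libraries held 96.4, 96.6 and 128 CPM of CCNB1, between the groups. The mitotic kinase genes AURKA (-1.84) and PLK1 (-1.70) fell as well. NUSAP1 (14.9 and 13.6 CPM) and PRC1 did not pass.

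**Figure D5:**
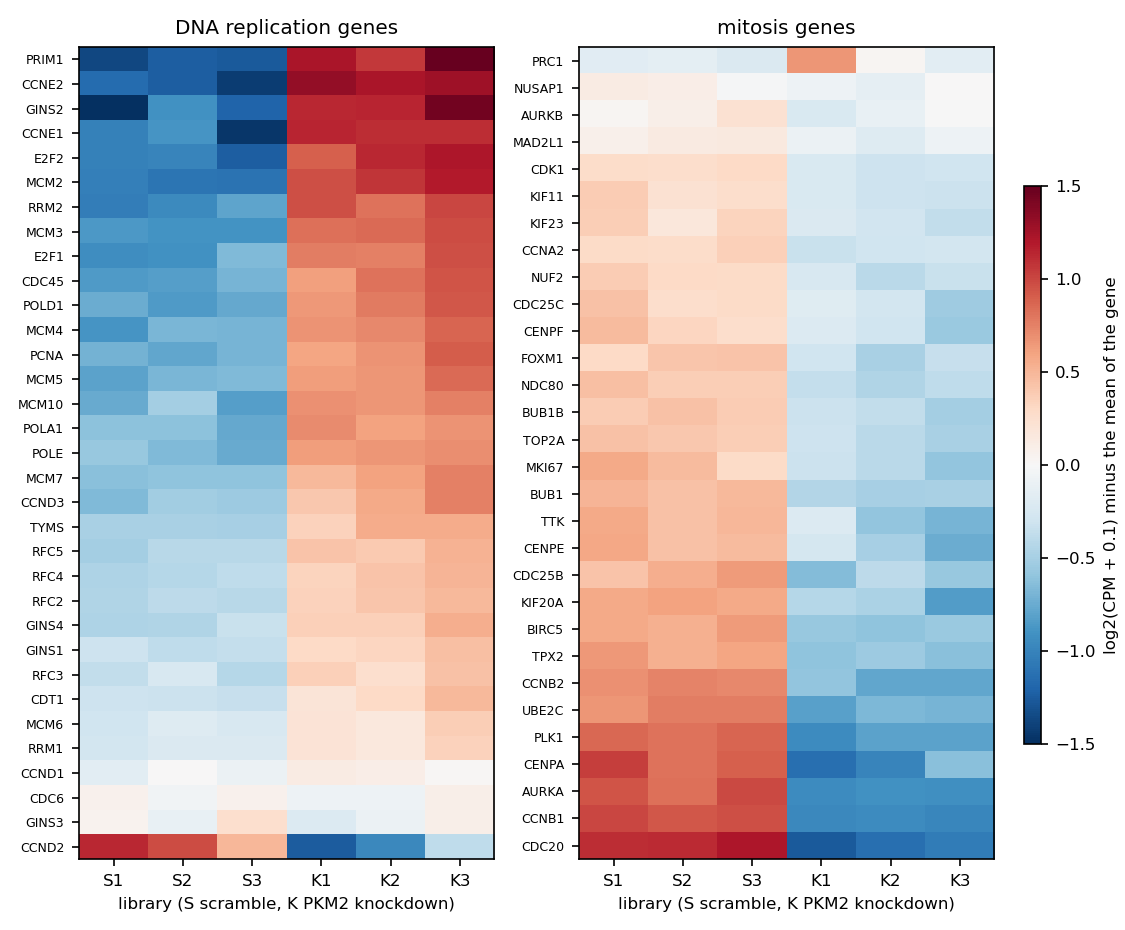
Log2(CPM + 0.1) minus the mean of the gene over the 6 libraries, for DNA replication genes (left, 1 of the 34 not drawn) and the 30 mitosis genes (right), with S1 to S3 the scramble and K1 to K3 the knockdown libraries. Of the whole replication list 31 genes are higher in the knockdown group at the threshold, and 28 of the mitosis genes are lower.

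Among p53 targets and cell cycle inhibitors 10 of 19 were lower and 7 higher (median -0.29), and 7 were lower and 8 higher under library totals. CDKN1A, which encodes the inhibitor p21, was at 1185, 1197 and 1233 CPM against 529, 561 and 569.6 (-1.12), and GADD45A fell by 2.42. In the BCL2 family 10 of 15 were lower and 4 higher (median -0.27), the lower count being 6 when all 9 libraries were fitted. PMAIP1, the pro-apoptotic NOXA, fell from 143 to 27.4 CPM (-2.38) and the survival gene MCL1 from 1436 to 880.0 (-0.71), while BMF, a pro-apoptotic BH3-only gene, rose by 2.21.

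PKM itself was lower in the recipient cells. It was at 3271, 3451 and 3439 CPM in the scramble group and 2129.7, 2260.0 and 2404 CPM in the knockdown group (-0.58, SE 0.06, adjusted p 1.54e-08), and at 789, 734 and 428 CPM in the control libraries. The groups did not overlap, and both were above the control libraries. Counts per gene do not separate the PKM2 from the PKM1 form, and THP-1 levels do not check a knockdown read as made in the donor cells.

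Most of the pathway around PKM went the other way: 23 of 28 glycolysis and lactate export genes were higher and 3 lower (median 0.83). The lower ones were PKM, the glucose transporter gene SLC2A3 (87.2, 97.1 and 96.4 CPM against 34.3, 36.9 and 42.2, -1.31) and the lactate transporter gene SLC16A1 (157, 153 and 152 CPM against 41.6, 43.1 and 47.6, -1.80). PFKL, a form of the committing enzyme phosphofructokinase, was at 270.5, 288 and 282 CPM against 792, 852 and 833 (1.56). ALDOC, an aldolase, was at 31.9, 44.2 and 41.5 CPM against 274, 289.7 and 266 (2.82), and PFKFB4, which sets the level of an activator of phosphofructokinase, rose by 2.55 and GPI by 1.57. PFKFB3 and LDHB did not pass. Of pentose phosphate genes 5 of 10 were lower and 3 higher (median -0.24). PGD (-0.83), TKT (-0.68), TALDO1 (-0.66) and PGLS (-0.43) were among those that fell.

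Lists of mitochondrial metabolism had medians near 0, whose sign turned with the scaling. Tricarboxylic acid cycle genes gave 11 higher and 13 lower of 30, nuclear-encoded respiratory chain genes 9 and 11 of 32, and mitochondrially encoded genes 4 and 6 of 13, the medians being within 0.03 of 0. Under library totals these became 16 and 9, 17 and 10, and 7 and 0. CS, citrate synthase, fell by 0.78, while MDH1 rose by 0.79. MT-ND4 was at 4741, 4988 and 4764 CPM against 6465, 6582 and 6643 (0.44). MT-CO1 did not pass.

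Lipid genes were mostly higher. Cholesterol synthesis and uptake genes gave 17 higher and 4 lower of 23 (median 0.46), and LXR target, fatty acid and lipid droplet genes 21 and 4 of 27 (median 0.81). FDPS, which makes farnesyl diphosphate, was at 146, 153 and 158 CPM against 637, 658 and 581 (2.04), and LSS, the sterol cyclase, differed by 1.72. SCD, the desaturase that makes oleate, was at 579.7, 647 and 613 CPM against 1802, 1847 and 1612 (1.52), and FADS2, another desaturase, rose by 1.51. ABCA1, the cholesterol exporter, did not pass. SQLE (-0.63), DGAT2 (-0.98) and ACSL3 (-0.74) were lower. The sterol element, searched as TCAC, 1 free base and CCAC on both strands, was in 1 of 18 promoters of the cholesterol list (SREBF2, a higher gene) and in 1.39% of all genes.

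Hypoxia response genes were divided, 8 higher and 6 lower of 20 (median 0.05). NDRG1 was at 85.2, 121 and 107 CPM against 761, 799 and 829 (2.93), whereas HIF1A fell by 0.95 and HMOX1, the haem oxygenase, was at 136, 139 and 144 CPM against 36.9, 40.0 and 33.3 (-1.93). Targets of the transcription factor NRF2, with iron and metallothionein genes, were lower in 18 of 24 and higher in 5 (median -1.09). GCLM, a subunit of the enzyme that limits glutathione synthesis, was at 214, 209 and 209 CPM against 32.7, 26.5 and 23.7 (-2.93). NQO1 (-2.35) and ME1 (-2.11) followed, and SOD2, the mitochondrial superoxide dismutase, was higher (0.95).

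Eicosanoid genes were higher in 14 of 17 and lower in 2 (median 0.95). ALOX5, which starts leukotriene synthesis, was at 10.2, 11.5 and 11 CPM against 111, 115 and 96.9 (3.30, SE 0.08). LTA4H (1.49) and LTC4S (2.33), the next enzymes of the route, and the prostaglandin receptor gene PTGER4 (1.04) rose with it, while the partner of the first enzyme, ALOX5AP, did not pass (335 and 364 CPM). Glucocorticoid-responsive genes gave 8 lower and 5 higher of 15 (median -0.31), and 6 and 6 under library totals. NR3C1, the receptor, fell by 1.28 and SGK1 rose by 1.69.

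Matrix, protease and coagulation genes gave 18 higher and 10 lower of 32 (median 0.47). SPP1, osteopontin, was at 28.1, 41.2 and 38.9 CPM against 276, 282 and 274 (2.95). COL6A1 rose by 1.86 and ADAMDEC1 by 3.00, while THBS1 (-1.80) and the protease inhibitor TIMP1 (-1.71) fell. ADAM17, the shedding protease, did not pass (95.8 and 95.4 CPM). Of integrin and adhesion genes 15 of 24 were higher and 7 lower (median 0.67). ITGB2, the beta chain of leukocyte integrins, was at 660.4, 744 and 716 CPM against 1718, 1917 and 1884 (1.38), and its antisense row ITGB2-AS1 differed by 3.21, so reads of the pair cannot be told apart. ITGAL (1.37) and ITGA4 (1.20) rose, and ITGB7 (-2.43) and ITGA3 (-2.55) fell.

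Cathepsin, hydrolase and lysosomal membrane genes gave 17 higher and 12 lower of 35 (median 0.21). CTSH (1.99) and GAA (1.98), enzymes of the lysosome, rose, and CTSL (-1.80) and LAMP1 (-0.82) fell. PSAP and LAMP2 did not pass. Of autophagy genes 14 of 26 were lower and 7 higher (median -0.21), MAP1LC3B, which encodes the membrane tag LC3, falling from 157 to 46.9 CPM (-1.75).

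Most ribosomal protein and ribosome biogenesis genes fell by less than 2-fold. Of 35 cytosolic ribosomal protein genes 34 were lower and 0 higher, with a median of -0.52 and a lowest value of -0.79 for RPL38, and they took 5.41% to 5.89% of the counts of a scramble library and 4.36% to 4.75% of those of a knockdown library. RPS3 did not pass. Nucleolar ribosome biogenesis genes were lower in 21 of 28 and higher in 1 (median -0.38), with GNL3 (-0.85) and NPM1 (-0.70) among the falls and NOP56 (0.41) the rise. Histone genes gave 9 lower and 4 higher of 17 (median -0.22), and 3 and 4 under library totals.

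Across classes of genes, 43.3% of 2604 long non-coding RNAs were higher and 20.2% lower, against 36.9% and 41.5% of 13421 protein-coding genes. The classes were not matched for level, with which the calls also differed. With protein-coding genes in 5 equal groups by GC content, the group richest in GC had 47.1% higher and 32.2% lower, and the poorest 29.7% higher and 48.0% lower. In 5 groups by transcript length the share of higher genes stayed between 34.6% and 39.3%. Their part in the results was not tested.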

How the data were processed

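RNA-seq of 9 THP-1 libraries was available as one table of whole-number read counts per gene symbol, deposited by the authors with no normalization. Per the submitters' processing notes, HISAT2 2.0.5 and featureCounts 1.5.0-p3 were used on GRCh38 (hg38), with no annotation release or strand setting named. The table holds 30000 rows, the lowest with 4 counts over the 9 libraries. Repeated symbols (355 rows) were kept as rows of their own.

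The 3 knockdown-ectosome and 3 scramble-ectosome libraries were compared with edgeR 4.0.16 in R 4.3.3 (filterByExpr, TMM scaling, quasi-likelihood test, Benjamini-Hochberg adjustment over all 17676 genes tested, 4 residual degrees of freedom). A gene was called at an adjusted p under 0.05. Standard errors are the log2 fold change divided by the root of the F statistic. Control libraries are shown on a TMM scale over 9 libraries and entered no test. Depth was 18593808 to 23864381 counts per library, so that genes of a few reads are imprecise. The procedure was tested on simulated data over the same 17676 genes with 200 changed. There it recovered 91% of 2-fold and 99% of 4-fold changes, and 7.77% of its calls were false, above the nominal 5%. In the data 74.3% of genes were called, so the scaling was not tried with most genes changed. These rates therefore cannot be carried over to the data. Recovery was not split by level, so it gives no rate for genes of low level.

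Genes were named by rule: PKM, STAT3, CCL1 and CCR8; the 15 largest rises and falls by log2 fold change with a mean of at least 5 CPM and groups apart; the 10 largest rises and falls by difference of mean CPM; in each list up to 5 members in each direction with the smallest p, and members that did not pass. Named outside it, after their values were seen, were ATF4, CCL8, CIITA, CTH, CYBB, HIF1A, IL11, INHBA, MCM4, NCF4, NPM1, PPBP, RARA, SEC11A, SHMT2, TLR7, VEGFA and the overlapping or near-identical rows. The members and lists were chosen with earlier results of these data known. Alternatives were all 9 libraries in the fit, 3 other scalings, DESeq2 1.42.0, 2 other filters, a replicate block and leaving out each library. Gene positions are from GENCODE 29, promoters from RefSeq on GRCh38.p14. Results for some genes are not reported here.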

Additional observations from a re-analysis of the deposited data

How the results depend on the processing

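The counts of higher and lower genes (6646 and 6492) moved by less than 1.5 times under every alternative run. They were 5782 and 5583 with all 9 libraries in the fit, 7839 and 5244 with scaling by library totals, 7363 and 5702 with upper-quartile scaling, 6577 and 6559 with DESeq2 size factors, 6122 and 6174 with the DESeq2 Wald test, 7397 and 7190 with no filter on low counts, and 6077 and 5968 with a filter at 1 CPM. Leaving out 1 library gave 6357 to 6698 higher and 6216 to 6558 lower. Of the 430 called genes that the naming rule picked, 385 kept their call in every one of the 14 settings that gave them a result, and 0 reversed. Not all had a result in each setting: CCND2, for example, had one in 13. The rule picks large differences and small p, so kept calls were likely beforehand. Some of the 430 are not named in the text. Genes named outside the rule, and those that did not pass, were not counted.

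With the replicate number as a block, 6701 genes were higher and 6621 lower. The numbers were not taken to pair the libraries: deviations of same-numbered libraries correlated at 0.0692, -0.0199 and 0.0474. Those of libraries with unlike numbers correlated at -0.0792 to 0.0322. The scaling sets the sign of differences near 0, since totals move the median of all genes to 0.18 and the upper quartile to 0.12. Genes of a few reads, CCL1 among them, are the least precise. With all 9 libraries in the fit, the higher counts of the interleukin and NRF2 lists went from 5 to 3 and the lower counts of the cholesterol list from 4 to 2 and of the histone list from 9 to 4. Under library totals, higher counts went from 5 to 8 for interleukins, from 2 to 4 for aminoacyl-tRNA synthetases and from 1 to 5 for nucleolar genes, and lower counts from 4 to 2 for MHC class II and for cholesterol genes and from 9 to 5 for interferon genes.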
